A study of Rattus norvegicus with 35 samples.

Results

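Untreated neonatal rat cardiac cells were compared between 3 arrays from cultures enriched for cardiac myocytes (CM) on Flexcell plates coated with collagen I and 5 arrays from CM-enriched fractions, 3 taken after sham-irradiation and 2 after sham-UV. These 8 arrays, of 35 in the series, were chosen by their labels as every untreated CM control. Per the study's methods, all CM cultures were made from ventricles of neonatal hearts and changed to medium with a low content of horse serum one day before the start. The plate cultures were the unstretched controls of the cyclic stretch experiments, and were trypsinised but not elutriated. The sham cultures were handled without exposure and trypsinised a day later. They were then separated by centrifugal elutriation, which sorts cells by size and density, into fractions with a larger share of CM. By the study's flow cytometry of myosin, the CM share was lowest in the cultures of the stretch experiments. It was higher in fractions of the ionising radiation experiments and highest in those of the UV experiments. For sham-UV the medium was also taken off and the cells rinsed with buffer. Fibroblast (FB) cultures of the same hearts were used for comparison (9 untreated arrays, 3 for each of plate, sham-irradiation and sham-UV), and these were not elutriated in any experiment. The plates, the elutriation, the stressor experiment and the array batch change together between the groups, so culture format and array batch cannot be separated. The labels do not say that the arrays of a group came from separate cultures, but the study's methods describe independent experiments.

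Neonatal CM beat and hold the contractile apparatus in sarcomeres, repeated units of actin, myosin and titin bounded by Z-discs. Loaded or growing CM raise a fetal gene set that includes the natriuretic peptides Nppa and Nppb and skeletal actin Acta1. Cardiac fibroblasts make the collagen-rich matrix, cut and remodel it with metalloproteinases, and send growth factors to CM. CM-enriched cultures always hold fibroblasts, and these can divide while CM withdraw from the cell cycle after birth. In bulk RNA of such a mixture, fewer cells of a type and less RNA per cell cannot be told apart.

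Both cell types were found on all 8 arrays. The defining CM markers Myh6, Myl2, Tnnt2, Tnni3 and Actc1 and the fibroblast markers Col1a1, Col1a2, Col3a1, Fn1 and Dcn lay above the floor, the lowest level used, on each of them. The summed scaled intensity of 21 fibroblast markers was 31160 to 34090 on the plates, 16040 to 22500 after sham-irradiation and 17030 to 19480 after sham-UV. The plates lay above every sham array and below every FB array (34810 to 45780). The sum over 17 CM markers was 25250 to 27080 on the plates, 25130 to 38480 after sham-irradiation and 42940 to 47570 after sham-UV, so the plates overlapped with the sham-irradiation arrays there. Of these lists, 12 fibroblast markers were higher and 0 lower on plates, and 5 CM markers were lower and 0 higher. Smooth muscle markers (6 genes) summed to 2783 to 3804 on plates against 3495 to 6589 on the sham arrays, endothelial markers (10 genes) to 403.8 to 568.3 against 323.9 to 1358, and leukocyte markers (19 genes) to 277.9 to 395.5 against 356.6 to 530.8. Pecam1, Vwf and Ptprc, defining markers of endothelium and leukocytes, were not called. The actin probe-set ratio, 3′ over 5′ end, a sign of RNA length, was 1.33 to 1.47 on plates. On the sham arrays it was 0.907 to 1.18, without overlap. The Gapdh ratio reached 1.08 on plates and 1.13 on the sham arrays. The hexokinase ratio leaned the other way with overlap, at 1.85 to 2.56 on plates and 2.12 to 3.11 on the sham arrays. The part of cell mixture, of RNA length and of batch in the differences given here was not tested.

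**Figure D1:**
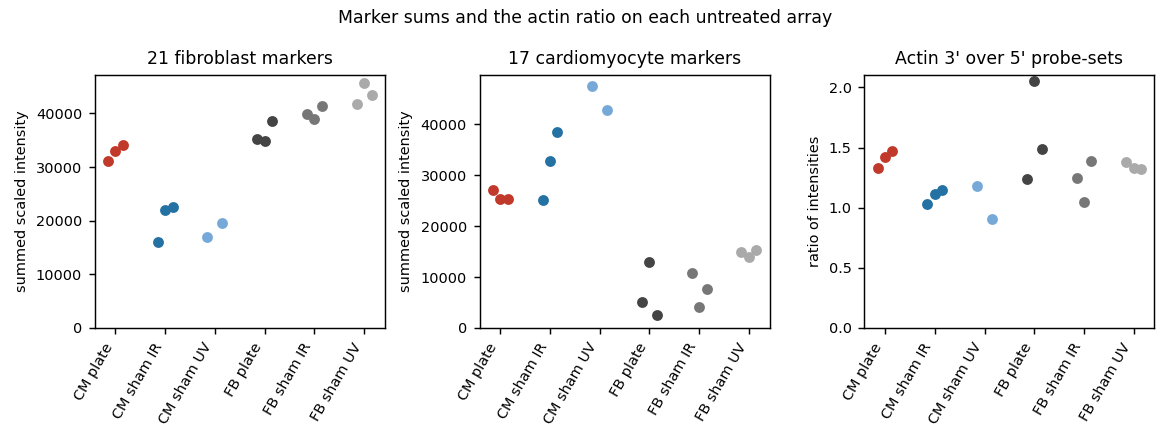
Summed scaled intensity of 21 fibroblast markers and of 17 CM markers, and the ratio of the actin probe-sets from both transcript ends, for each untreated array (points, by group; vertical axes start at 0). The 3 CM plate arrays lie at 31160 to 34090 for fibroblast markers, above the 5 CM sham arrays, and their actin ratios of 1.33 to 1.47 lie above those of the CM sham arrays.

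A probe-set was called where the plates differed from the mean of both sham groups with an adjusted p under 0.05 (limma across 8740 probe-sets, Benjamini-Hochberg) and in the same direction from each sham group. There were 302 probe-sets higher (3.46% of those tested) and 283 lower (3.24%) on plates. A further 15 with opposite signs, or no difference, against 1 sham group were left out. The median fold was 2.21 for the higher and 1.97 for the lower probe-sets, 63 and 20 of them reached 4-fold, and 49 and 58 lay under 1.5-fold. The plates lay outside the range of all 5 sham arrays for 287 of the 302 higher and 264 of the 283 lower calls. Over all probe-sets this held for 7.72% above and 7.13% below. The calls were made on the same arrays, so this excess follows largely from the call rule. Taken singly, 193 probe-sets were higher and 182 lower than after sham-irradiation (2.21% and 2.08%), and 248 and 215 than after sham-UV (2.84% and 2.46%). The sham groups differed from each other in 45 probe-sets (0.515%). The sham-difference genes named by rule, Nr1h2, Gabra5, Cldn7 and Ghrh, had 5, 5, 5 and 6 of 8 arrays at the floor, and their levels carry little information.

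These counts depended on single arrays. Without plate replicate 3 there were 65 higher and 29 lower probe-sets, without plate replicate 2 there were 75 and 44, and without plate replicate 1 there were 161 and 113. Without sham-irradiation replicate 2 or 3 the counts were 135 and 92 or 132 and 81, and without sham-UV replicate 2 they were 197 and 148. In each of these fits every one of the 302 and 283 probe-sets kept its sign. Where plates and sham arrays do not overlap, leaving out an array cannot change the sign. The deposited intensities came at a low or a high scale, all plates at the low and all sham-irradiation arrays at the high one. With that scale as a block, 65 and 115 probe-sets passed, of which 35 and 24 were among the calls given here. Against the 1 sham array at the low scale, sham-UV replicate 1, 302 of 302 higher and 282 of 283 lower calls had the same sign. Over all probe-sets 42.5% and 48% lay in those directions. That array is part of the sham-UV mean whose sign the calls required, so this agreement was largely set by the call rule. Of the 116 named probe-sets called, 20 passed without each of the 8 arrays in turn and 20 passed with the scale block, and 9 of these passed in both ways. Those 9 were Mmp2, Mmp14, Lum, Vcan, Ptn, Cnn1, Nppa, Nppb and 1 probe-set of Dcn. With the scale block the other 96 named calls were lost. With the replicate number as a block, 0 of the 116 were kept. The labels do not say whether that number links arrays of different stressors.

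Among 21 fibroblast markers, 12 were higher on plates and 0 lower, with a median log2 difference of 1.04 against 0 over all probe-sets. In the matrix lists most genes did not pass. Of 11 collagens 2 were higher and 9 not called, of 31 matrix glycoproteins 7 were higher and 24 not called (median 0.24), and of 32 matrix proteases and crosslinking enzymes 7 were higher, 1 lower and 24 not called, where 3.63% of genes in all were higher and 3.51% lower. Mmp2, the gelatinase that cuts denatured collagen, read 9.99, 10.20 and 10.08 (log2 normalized intensity) on the plates. It read 8.66, 8.50 and 8.72 after sham-irradiation and 7.26 and 7.64 after sham-UV. All plate values lay above all sham values, and the difference was 2.05 ± 0.11 (SE, 3 against 5 arrays, limma adjusted p = 0.00237). A second Mmp2 probe-set was at -0.05 and was not called. The activator of Mmp2 at the cell surface, Mmp14, differed by 1.82 ± 0.16 and the collagen-cutting cathepsin Ctsk by 1.90 ± 0.17 (limma adjusted p = 0.00638 for both). Mmp12, a macrophage elastase, was the protease that was lower, by a difference of -2.17 ± 0.39 (limma adjusted p = 0.0332), and that call was lost without any 1 of 6 arrays.

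The small leucine-rich proteoglycans, which bind collagen fibrils, were among the largest differences. Dcn (decorin) read 10.15, 10.80 and 10.71 on plates in the probe-set most significant against FB, 8.19, 8.11 and 8.24 after sham-irradiation and 6.81 and 6.80 after sham-UV. The groups did not overlap, and the 4 Dcn probe-sets were all higher, by 2.26 to 3.14. The probe-set at 3.14 lost its call without plate replicate 2 or 3 (adjusted p at most 0.0727). Lum (lumican) read 9.32, 9.38 and 9.79 on plates, 7.55, 7.93 and 7.37 after sham-irradiation and 5.20 and 6.25 after sham-UV, a difference of 2.82 ± 0.28 (limma adjusted p = 0.0089). Vcan, a large proteoglycan that takes up water, differed by 2.36 ± 0.20 (limma adjusted p = 0.00638). Lum, Vcan and the Dcn probe-set with the values above passed without each array in turn, as did Mmp2, Mmp14 and Ctsk. With the scale block Ctsk was not called. Postn (periostin), laid down by activated fibroblasts, was higher by 2.39 ± 0.33 and the fibrillar collagens Col3a1 and Col5a2 by 1.04 ± 0.13 and 1.01 ± 0.15. Fn1 (fibronectin) was higher by 0.76 ± 0.11, and these 4 lost the call without plate replicate 2 or 3, among others (adjusted p at most 0.0945). Col1a1 and Col1a2, the chains of collagen I, were at differences of 0.92 ± 0.41 and 0.72 ± 0.30 and were not called (limma adjusted p = 0.255 and 0.232). The arrays measure rat transcripts, so the collagen coat of the plates is not read by them. Vim, made by nearly all mesenchymal cells, differed by 0.04 and Timp1 by 0.13, neither called.

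**Figure D2:**
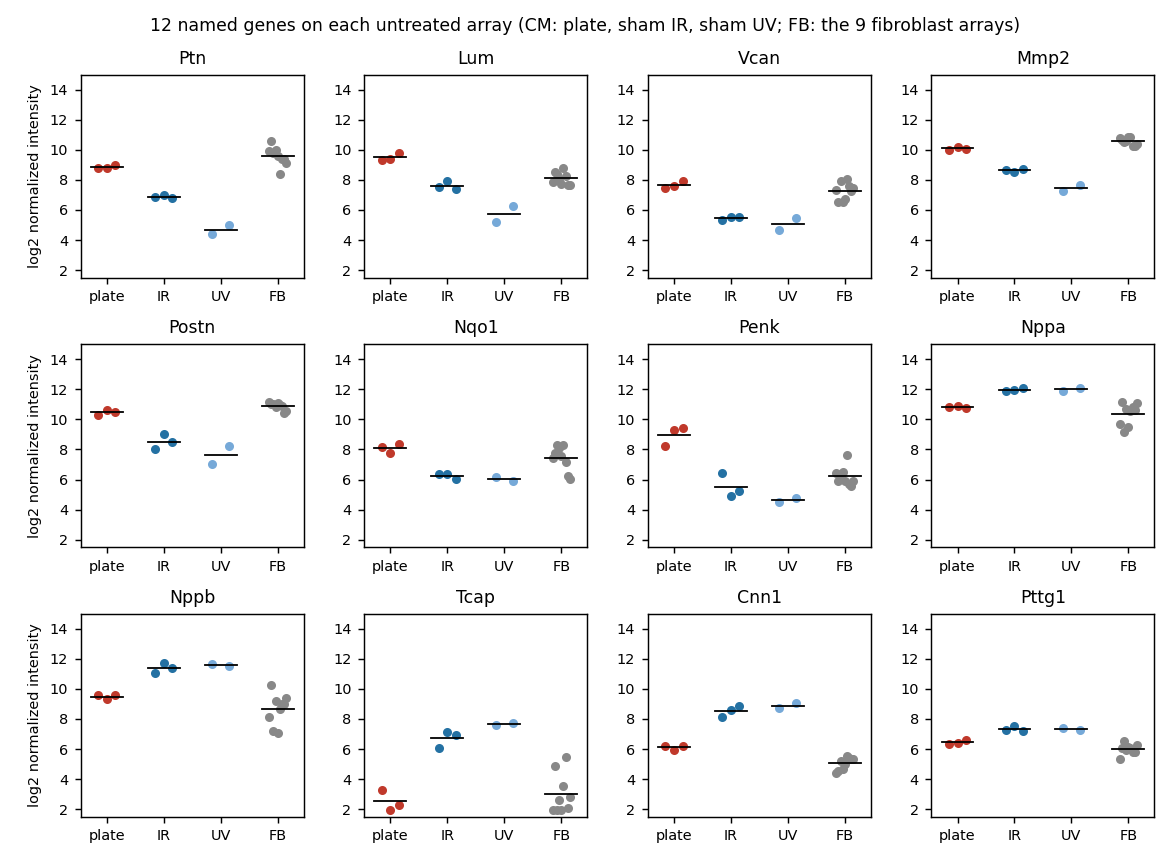
Log2 normalized intensity of 12 named genes on each untreated array, with CM plates, CM sham-irradiation (IR), CM sham-UV (UV) and the 9 FB arrays side by side (points are arrays, bars are means). For Mmp2 the plates lie at 9.99 to 10.20 against 7.26 to 8.72 on the sham arrays, and for Nppb at 9.31 to 9.59 against 11.06 to 11.71.

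Of 37 growth factors and growth factor receptors 6 were higher, 1 was lower and 30 were not called, with a median of 0.11. Ptn (pleiotrophin), a heparin-binding growth factor, read 8.78, 8.81 and 9.02 on plates, 6.85, 7.01 and 6.79 after sham-irradiation and 4.38 and 4.97 after sham-UV. The groups lay far apart, with a difference of 3.09 ± 0.15 (limma adjusted p = 0.00237) that passed without each array. The sham groups themselves were apart for Ptn, with plates 1.99 above sham-irradiation and 4.19 above sham-UV. Pdgfra, the receptor that marks fibroblasts, differed by 2.83 ± 0.30, and Igf1, the growth factor that acts on CM as well, by 2.82 ± 0.30 in its brightest probe-set (limma adjusted p = 0.011 for both). Tcf21, a transcription factor of cardiac fibroblasts, was higher by 3.72 ± 0.55 (limma adjusted p = 0.0226). Its sham groups were 3.66 apart, and the difference was 1.89 against sham-irradiation, which did not pass (limma adjusted p = 0.141), and 5.55 against sham-UV (limma adjusted p = 0.0174). The lower gene was Hbegf, an EGF receptor ligand, at -1.91. Without plate replicate 3 the calls of Pdgfra, Igf1 and Tcf21 were lost (adjusted p at most 0.0951), Igf1 and Tcf21 also without plate replicate 2, and Tcf21 also without plate replicate 1 or sham-UV replicate 2.

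Among 36 inflammation genes 6 were higher, 0 lower and 30 not called, and among 32 oxidative stress genes 4 were higher, 0 lower and 28 not called. Nqo1, a quinone reductase, read 8.18, 7.78 and 8.34 on plates and 5.93 to 6.36 on the 5 sham arrays, a difference of 1.96 ± 0.15 (limma adjusted p = 0.00595), while a second Nqo1 probe-set was not called. The glutathione transferases Gsta1 and Mgst1 differed by 1.86 ± 0.26 and 2.36 ± 0.33 (limma adjusted p = 0.021 and 0.0213), and both lost the call without plate replicate 2 or 3, among others. C1s, a protease of the first complement component, differed by 2.97 ± 0.28 and Cebpd, a transcription factor of acute responses, by 1.56 ± 0.13 (limma adjusted p = 0.00745 and 0.00631). Nqo1, C1s and Cebpd passed without each array, but with the scale block all 3 calls were lost (adjusted p at most 0.0709). Penk, which encodes the enkephalin precursor, read 8.21, 9.29 and 9.39 on plates, 6.41, 4.89 and 5.22 after sham-irradiation and 4.49 and 4.78 after sham-UV. Its difference of 3.89 ± 0.45 (limma adjusted p = 0.0132) came, among higher probe-sets above the floor on all 8 arrays, after that of Pla2g2a, a secreted phospholipase, at 3.96 ± 0.78 (limma adjusted p = 0.0415). Pla2g2a lost its call without any 1 of 7 arrays (adjusted p up to 0.144), and Penk without plate replicate 2 or 3. Of 19 leukocyte markers 0 were higher and 1, Cd53, was lower, where 3.63% of all genes were higher and 3.51% lower. Counts this small do not set the list apart from all genes. On each plate 4 to 5 of these markers lay at the floor, and on each sham array 2 to 5.

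Of 20 sarcomere genes 10 were lower on plates, 0 higher and 10 not called, with a median difference of -0.80. Tcap, which caps titin at the Z-disc, read 3.30, 1.97 and 2.28 on plates, 1 of them at the floor, and 6.06, 7.15 and 6.93 after sham-irradiation and 7.63 and 7.73 after sham-UV. The groups did not overlap, and the fitted difference was -4.68 ± 0.39 (limma adjusted p = 0.00631), though values near the floor are poorly measured. Myh7, the slow myosin heavy chain, was lower by a difference of -0.76 ± 0.09 (limma adjusted p = 0.0154), and its probe-set may also bind the closely related Myh6. The Z-disc genes Actn2, Csrp3, Ldb3 and Pdlim5 differed by -1.43, -1.94, -1.10 and -0.86. Tcap and Myh7 passed without each array, whereas the 4 Z-disc genes lost the call without plate replicate 3 (adjusted p at most 0.0988). With the scale block Tcap was not called, and Myh7 was called neither with it nor with 75th percentile scaling alone, the spread taken from all 17 untreated arrays or a fit to all 35 arrays (adjusted p up to 0.647). Myh6, the main heavy chain of the rat heart, read 11.21, 11.03 and 10.57 on plates and 11.45 to 11.90 on the sham arrays. It did not overlap but was not called, at -0.77 ± 0.17 (limma adjusted p = 0.0563). Tnnt2 and Actc1 differed by -0.17 ± 0.11 and -0.16 ± 0.08 and were not called. Of 3 Myl2 probe-sets 1 was lower, at -0.87 ± 0.16 (limma adjusted p = 0.0341), while the brightest, at -0.15 ± 0.07, and the other, at -0.20 ± 0.06, were not called.

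Of 7 fetal genes that mark hypertrophy, 5 were lower and 0 higher on plates. Nppb, the B-type natriuretic peptide, read 9.59, 9.31 and 9.57 on plates, 11.06, 11.71 and 11.36 after sham-irradiation and 11.64 and 11.51 after sham-UV. The groups were apart by -1.99 ± 0.16 (limma adjusted p = 0.00599), a fold of 3.97. Nppa, the atrial natriuretic peptide, read 10.84, 10.86 and 10.74 on plates against 11.86 to 12.11 on the sham arrays. The difference of -1.15 ± 0.08 (limma adjusted p = 0.00595) was nearly equal against sham-irradiation (-1.14) and sham-UV (-1.17), and the 4 Nppa probe-sets were all lower. Ankrd1, a nuclear and sarcomeric protein that responds to load, differed by -0.92 ± 0.08 (limma adjusted p = 0.00638). These 3 passed without each array. With the spread of the 17 untreated arrays none of the 3 was called (limma, adjusted p up to 0.206), and Ankrd1 was also lost with all 35 arrays and with the scale block (adjusted p = 0.105 and 0.0513). Acta1, skeletal actin, read 7.12, 6.73 and 7.71 on plates, 8.15, 8.82 and 8.98 after sham-irradiation and 9.87 and 10.46 after sham-UV, a difference of -2.22 ± 0.31 (limma adjusted p = 0.0211). Without plate replicate 1 or 2, or sham-irradiation replicate 2 or 3, it was not called (adjusted p at most 0.0773).

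Of the 13 sarcomere and fetal genes called lower, 9 had a promoter in the RefSeq table (GRCr8, 250 bases before to 50 after the start of the gene), and the 3 promoters that hold an MCAT element are shown. They were chosen after the matches were seen. Capitals mark matches, on either strand, to the CArG box, the motif bound by serum response factor, and to the letters CATTCC of the muscle element known as MCAT. The promoter of Acta1 (chr19:68784145-68784444, minus strand) holds both, that of Myl3, the ventricular essential light chain (chr8:119616844-119617143, plus strand), holds a CArG box and a pair of MCAT elements, and that of Nppb (chr5:163699758-163700057, plus strand) holds an MCAT element. No matches overlap each other. Ldb3 held a CArG box alone, and the promoters of Actn2, Myh7, Nppa, Pdlim5 and Tnni1 held no match to either motif.
Acta1: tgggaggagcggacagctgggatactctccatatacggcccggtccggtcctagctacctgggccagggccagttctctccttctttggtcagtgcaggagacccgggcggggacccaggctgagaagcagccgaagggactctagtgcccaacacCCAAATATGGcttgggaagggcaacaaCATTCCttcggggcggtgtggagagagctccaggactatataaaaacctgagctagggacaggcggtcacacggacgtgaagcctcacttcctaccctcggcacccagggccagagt
Myl3: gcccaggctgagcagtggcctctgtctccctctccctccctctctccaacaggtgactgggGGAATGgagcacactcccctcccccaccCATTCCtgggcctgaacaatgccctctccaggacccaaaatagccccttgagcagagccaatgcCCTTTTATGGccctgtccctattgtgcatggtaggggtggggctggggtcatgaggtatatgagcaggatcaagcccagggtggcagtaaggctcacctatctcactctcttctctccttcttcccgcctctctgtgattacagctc
Nppb: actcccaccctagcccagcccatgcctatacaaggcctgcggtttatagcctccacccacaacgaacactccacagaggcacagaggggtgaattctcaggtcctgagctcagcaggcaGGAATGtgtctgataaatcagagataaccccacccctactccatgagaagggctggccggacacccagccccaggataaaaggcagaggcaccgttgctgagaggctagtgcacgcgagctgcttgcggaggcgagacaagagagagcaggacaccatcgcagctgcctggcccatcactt
A CArG box was found in 1.77% of 27457 genes with a promoter in the table and an MCAT element in 15%. Among the genes called lower, 138 of 166 had a promoter, of which 6 held a CArG box (4.35%) and 17 an MCAT element (12.3%). Among those called higher, 132 of 172 had one, of which 1 held a CArG box (0.758%) and 20 an MCAT element (15.2%). The share with an MCAT element was thus close to that of all genes in both directions, and the CArG box counts are too small to read further. The Myl3 difference was -0.81 ± 0.12 (limma adjusted p = 0.0247), lost without 5 of the arrays (plate replicates 2 and 3, sham-irradiation replicates 2 and 3, sham-UV replicate 2).

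Of 17 smooth muscle and myofibroblast genes 3 were lower (Cnn1, Myl9 and Des), 1 was higher (Pdgfrb) and 13 were not called. Without 1 array at a time, Myl9, Des and Pdgfrb each held in 2 of 8 fits. Cnn1 (calponin), an actin-binding protein of smooth muscle that immature CM also make, read 6.20, 5.96 and 6.18 on plates, 8.10, 8.57 and 8.88 after sham-irradiation and 8.75 and 9.04 after sham-UV. The difference of -2.59 ± 0.19 (limma adjusted p = 0.00595) passed without each array. In contrast Acta2, the smooth muscle actin of myofibroblasts, was at 0.01 ± 0.19 and Tagln at -0.56 ± 0.54, neither called. Of 16 calcium handling genes 14 were not called and 2 were lower, the calsequestrins Casq1 and Casq2, which bind calcium in the sarcoplasmic reticulum, at -3.09 ± 0.45 and -1.11 ± 0.17. The integrin Itga7, the laminin receptor of striated muscle, was lower in its 3 probe-sets, by -2.27 to -1.74. Of 32 respiratory chain genes 7 were lower and 0 higher, with a median of -0.33 and the largest call at -0.76 for Cyc1, which was lost without any 1 of 7 arrays. Of 28 fatty acid oxidation genes 2 were lower, 0 higher and 26 not called. Mitochondrial creatine kinase Ckmt2 and the very long chain acyl-CoA dehydrogenase Acadvl differed by -1.68 ± 0.29 and -1.31 ± 0.20. The muscle enolase Eno3 was at the floor on all 3 plates and above it on all 5 sham arrays, so with this floor it was at least 3.22-fold lower. That bound depends on the floor chosen. The Eno3 call was lost with the floor at the 40th percentile, and its difference ranged from -2.00 to -0.15 over the alternative settings. The calls of Casq1, Casq2, Itga7, Ckmt2, Acadvl and Eno3 were each lost without plate replicate 3 in at least 1 probe-set.

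Of 18 mitosis genes 6 were lower, 0 higher and 12 not called, with a median of -0.86. Pttg1 (securin), an inhibitor of sister chromatid separation, read 6.33, 6.40 and 6.61 on plates, 7.24, 7.51 and 7.17 after sham-irradiation and 7.42 and 7.27 after sham-UV. The groups were apart by -0.88 ± 0.11 (limma adjusted p = 0.0154), and the call was lost without plate replicate 2 alone (adjusted p = 0.0709). Ccnb1, Cdc20, Hmmr and Top2a differed by -0.85, -0.88, -1.15 and -0.98. The calls of Ccnb1, Cdc20 and Hmmr held in 3, 2 and 3 of the 8 fits without 1 array. In FB cultures the median over the 18 genes was 0.38, on the other side of 0. Among 21 genes of replication and entry into the cycle 2 were higher (Cad and Cdk4), 1 lower (Fen1, at -0.97 ± 0.11) and 18 not called, and Cad, Cdk4 and Fen1 held in 2, 1 and 7 of those fits.

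Some ribosomal protein and cholesterol genes were higher. Of 38 ribosomal protein genes (with Rack1) 9 were higher and 0 lower, with small differences (median 0.31), such as 0.57 ± 0.08 for Rpl13a (limma adjusted p = 0.0181), a call lost without plate replicate 2 or 3. Of 21 cholesterol genes 3 were higher, namely Insig1, which holds back the sterol sensor, Lss, which closes the sterol ring, and Ebp, an isomerase later in the path, at 1.20, 1.35 and 1.01 in their brightest probe-sets. Without 1 array at a time these calls held in 4, 2 and 0 of 8 fits. In FB cultures the median over the same 21 genes was 0.93, against 0.42 in CM cultures. Id2, an inhibitor of basic helix-loop-helix factors, was higher by 1.49 ± 0.16 and passed without each array, but not with the scale block (adjusted p = 0.121). The stress response genes were split, with 4 higher and 3 lower of 21, among them Cebpb at 1.62 and Ddit3 at 0.93 against Atf3 at -0.68 and Ppp1r15a at -0.58. The calls of Cebpb, Ddit3, Atf3 and Ppp1r15a held in 6, 2, 1 and 0 of the 8 fits without 1 array. None of 17 interferon and antigen presentation genes was called (limma, adjusted p under 0.05), and 1 had an unadjusted p under 0.05.

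**Figure D3:**
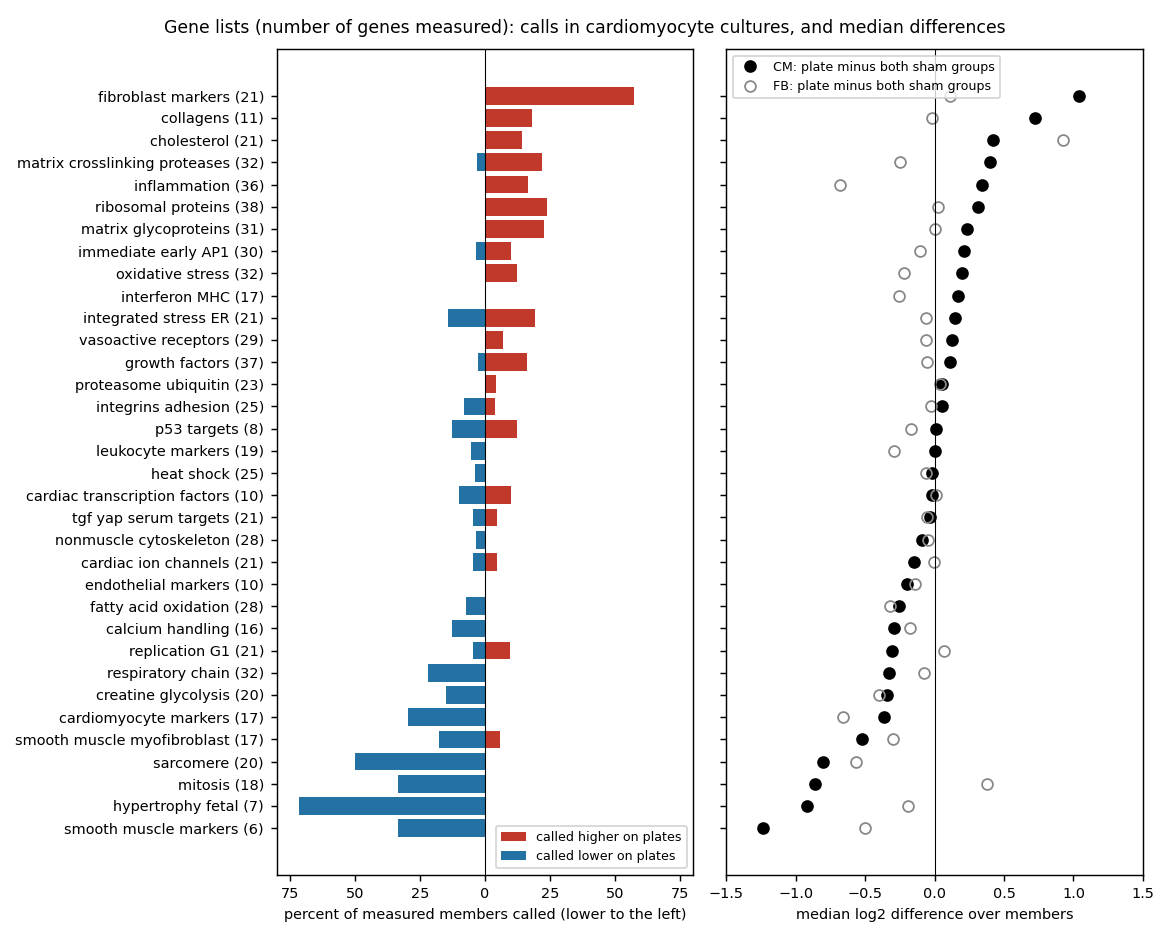
For each gene list with its number of measured genes, the percent of genes called higher (right) or lower (left) on CM plates, and the median log2 difference of plate minus both sham groups in CM (filled) and FB (open) cultures. Fibroblast markers stand at the top with 12 of 21 higher, and the fetal hypertrophy, mitosis and sarcomere lists near the foot with 5 of 7, 6 of 18 and 10 of 20 lower.

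The differences were set against FB minus CM differences taken from irradiated arrays, which are not among the 8 arrays. There the CM fractions were elutriated and the FB cultures were not, as between sham fractions and plates. FB minus CM thus holds handling as well as cell type, and their parts were not tested. The irradiated CM fractions came from the same experiments as the sham-irradiated ones and are not independent of them in preparation. Of the 302 probe-sets higher on plates, 87.4% were higher in irradiated FB than in irradiated CM, against 49.8% of all probe-sets. Of the 283 lower ones 11% were, and 85 (30%, against 4.67% of all) were more than 2-fold higher in CM than in FB both after irradiation and after stretch. In the stretch experiments neither CM nor FB cultures were elutriated, and CM were grown like the plate controls. With the stretched arrays the shares were 61.9% and 32.9%, against 46.4% of all.

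**Figure D4:**
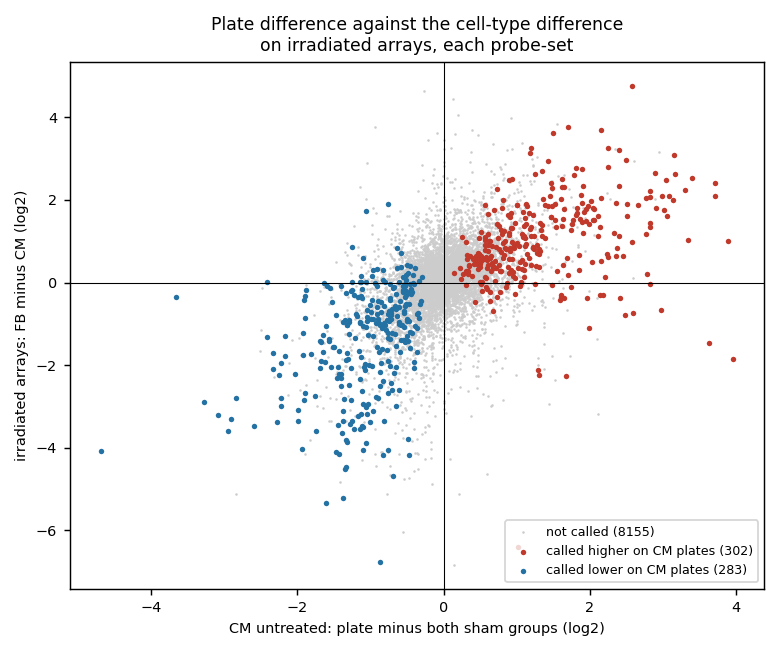
Each probe-set by the plate difference in untreated CM cultures (horizontal, log2) and by FB minus CM on irradiated arrays (vertical, log2). The 302 called higher lie mostly above 0 on the vertical axis (87.4%) and the 283 called lower mostly below it (11% above).

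Some genes lay outside the range of both cell types. In 30 of the 302 higher probe-sets (9.93%, against 0.629% of all) the plates were above all 14 other untreated arrays, FB arrays included, and in 21 of the 283 lower ones (7.42%, against 0.572%) below all of them. This class was set up after the data were seen. The calls already compared the plates with the CM sham arrays among those 14. Shares above those of all probe-sets thus follow in large part from the call rule. Above all others were Penk, where the FB arrays lay between 5.58 and 7.65, C1s (6.03 to 8.89) and Lum (7.65 to 8.81). The other genes on that side included the dipeptidase Dpep1, the tachykinin Tac3, the chemokine Cxcl13, the interleukin receptor Il1r1 and the potassium channel Kcnj8. Dpep1 and Il1r1 were above by little: CM plate replicate 1 read 5.76 and 6.40, and FB plate replicate 1 read 5.70 and 6.38. For Dpep1 the FB plate difference was 2.09, not shown to differ from that in CM (limma interaction adjusted p = 0.43). Below all others was Wfdc1, a secreted protease inhibitor, which read 4.87, 3.51 and 4.49 on plates, 7.50 to 8.34 on the CM sham arrays and 5.07 to 7.96 on the FB arrays. Its difference of -3.65 ± 0.39 (limma adjusted p = 0.011) was lost without plate replicate 3 (adjusted p = 0.0546). Hbegf, the TGF-beta targets Klf10 and Pmepa1, and the cyclin Ccnd1 were also below, at -1.91, -1.13, -0.96 and -0.63.

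FB cultures on the same kind of plate were tested for the same differences. In FB, 143 probe-sets were higher (1.64%) and 101 lower (1.16%) on plates than in both sham groups. Of the 302 probe-sets higher in CM, 19 were called in the same direction in FB (6.29%) and 182 had the same sign (60.3%), and of the 283 lower 9 (3.18%) and 193 (68.2%). Over all probe-sets these shares were 1.62% and 51.3%. The FB difference had a median of 0.08 and -0.14 over these sets, against 1.14 and -0.98 in CM. The test of CM difference minus FB difference (limma, 17 arrays) passed for 426 probe-sets (4.87%), among them 128 of the 302 (42.4%) and 78 of the 283 (27.6%). That test holds the same CM difference that made the calls, so shares above 4.87% follow in part from the selection. Mmp2, Ctsk and Dcn were higher on CM plates, whereas in FB their differences were 0.11, -0.90 and -0.18. Nppa and Nppb, at -0.58 and -0.19 in FB, were not shown to differ between the cell types (interaction adjusted p = 0.58 and 0.24). Id2 was higher in CM by 1.49 and at 1.17 in FB, and Cyp1b1 at 3.72 and 1.65, with no difference shown (interaction adjusted p = 0.67 and 0.16). The CM call of Cyp1b1 held in 3 of the 8 fits without 1 array. Within 1 scan day, FB plate replicates 2 and 3 minus FB sham-irradiation replicates 1 and 2 gave -0.16 for Mmp2, -1.43 for Ctsk and 1.78 for Cyp1b1. The 3 CM sham-irradiation arrays shared a scan day and an array lot, and scan records of the CM plates were not analysed here.

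**Figure D5:**
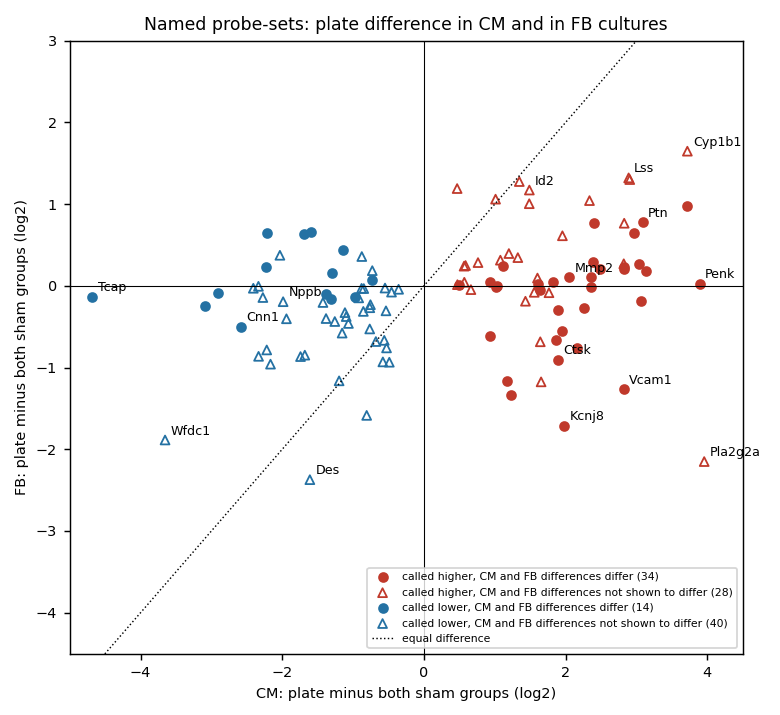
Named probe-sets called in CM cultures, by plate difference in CM (horizontal) and FB (vertical), log2; filled circles mark those whose CM and FB differences differed by limma (34 higher, 14 lower), open triangles the rest, and the dotted line equal differences. Most points lie near 0 in FB, such as Penk at 3.89 and 0.02, while Kcnj8 at 1.98 and -1.71 lies on opposite sides.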

How the data were processed

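RNA was hybridised to rat GeneChip arrays, 1 per sample. The values used are the intensities deposited by the authors, 1 per probe-set, whose software is not given in the sources used here. The values place each array at a 2% trimmed mean of 200.3 to 200.4 (26 arrays) or 1001.5 to 1001.7 (9 arrays). After removing 59 control probe-sets, each array was divided by its 75th percentile, floored at the 20th percentile of all values, log2 transformed and quantile normalized over 35 arrays. At the floor were 14.5 to 21.8% of probe-sets on the 8 arrays. Of 8740 probe-sets, 7006 had 1 gene symbol, 308 several and 1426 none in the platform annotation. limma 3.58.1 in R 4.3.3 (lmFit, eBayes with a trend, 5 residual degrees of freedom) was fitted to the 8 arrays, with Benjamini-Hochberg adjustment over all probe-sets. The interaction used 17 untreated arrays. A gene was taken through its brightest probe-set for lists (37 lists). Named were the 14 largest non-overlapping differences a direction, up to 5 genes at the floor on 1 side, up to 5 most significant of each list, fixed markers, and 4 each for the interaction and the sham difference. Genes named outside this rule (Hbegf, Vim, Timp1, Top2a, Tnni1, Dpep1, Tac3, Cxcl13, Klf10, Pmepa1, Ccnd1) were chosen after their values were seen. The members and lists were chosen with earlier results of these data known. P-values measure the spread between these arrays, and the few arrays limit the precision. The study's methods number experiments within each stressor, and the labels give no link between same-numbered arrays of different stressors. Deviations from group means correlated over 0.1 in 2 of 7 same-numbered pairs (-0.127 to 0.165) and 2 of 14 others (-0.165 to 0.143). In groups this small such deviations are tied to each other, so these values cannot decide on a link. Alternatives were other scalings, floors, filters, spreads, blocks and leaving out each array. Scripts were tested on simulated data.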

Additional observations from a re-analysis of the deposited data

Results flagged for a closer look

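For 4 probe-sets, those with the smallest p, the plate difference was tested to differ between CM and FB cultures (limma, 17 untreated arrays). CM difference minus FB difference was 1.94 ± 0.15 for Mmp2 (adjusted p = 3.91e-05), 2.34 ± 0.18 for the guanine deaminase Gda (adjusted p = 3.91e-05), 2.80 ± 0.23 for Ctsk (adjusted p = 9.04e-05) and 3.24 ± 0.31 for Dcn (adjusted p = 0.000325). On all 3 CM plates these genes lay above all 5 CM sham arrays. In FB the differences were 0.11 for Mmp2, -1.16 for Gda, -0.90 for Ctsk and -0.18 for Dcn. Of 3 Gda probe-sets 2 were called higher in CM, and of 2 Mmp2 probe-sets 1 was.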

How the results depend on the processing

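Every probe-set called in the 8-array comparison kept its direction in the 75th percentile scaling, the 35-array block, the scale block and each left-out array. Of 116 named probe-sets 113 kept theirs in all 19 alternatives, and the other 3 were at 0 with the 40th percentile floor. The 17-array spread, the fit without a trend and the filter leave each difference as it is. Direction could not change in those settings, so they say nothing about it. Higher and lower counts (302 and 283) changed as follows. They were 516 and 470 with all 35 arrays and a random block for the experiment (consensus correlation 0.307), 65 and 115 with the deposited scale as a block, 104 and 78 where each single contrast passed, 7 and 2 at an adjusted p under 0.005, and 175 and 178 as genes with at least 50% of probe-sets. Lower calls were 438 among probe-sets above the floor on at least 3 arrays. Against sham-irradiation (193 and 182) the counts were 301 and 309 with a pseudocount of 16, 334 and 345 with that filter, 372 and 329 with the 17-array spread, 431 and 438 with all 35 arrays, 88 and 98 with the scale block, and 113 lower with the 40th percentile floor. Against sham-UV (248 and 215) they were 384 higher with the filter, 373 higher with the 17-array spread, 456 and 368 with all 35 arrays and 129 higher with the scale block. The sham groups differed in 45 probe-sets (1494 at an unadjusted p under 0.05), in 26 with 75th percentile scaling, 17 with the trimmed mean, 28 with the higher floor, 12 with the pseudocount, 271 with the 17-array spread, 360 with all 35 arrays and 170 with the scale block. With 1 array left out, the ranges were 65 to 323 and 29 to 264 for both sham groups, 25 to 173 and 11 to 160 against sham-irradiation, 45 to 231 and 27 to 222 against sham-UV, 11 to 171 between the sham groups, 88 to 306 for FB plates (244) and 220 to 576 for the interaction (426). The FB arrays left out, and the limit to calls of at least 1.5-fold above the floor on at least 3 arrays, were chosen after seeing the data. The latter left 253 and 225. With the replicate number as a block, which does not pair these samples, 1 higher and 0 lower probe-sets passed for both sham groups, 0 and 0 against sham-irradiation, 1 and 2 against sham-UV and 2 between the sham groups, with 3 residual degrees of freedom (limma; 828 and 865 at an unadjusted p under 0.05 for both sham groups). Intensities near the floor limit what can be read from dim probe-sets, and 3 against 5 arrays of unlike handling and scale limit all counts.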
